A study of Drosophila melanogaster with 25 samples.

Results

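Genes of the epidermal growth factor receptor (EGFR) pathway were followed on 25 Affymetrix Drosophila Genome 2.0 arrays of larval imaginal discs. The members were all probe sets that the platform annotation gave to Egfr, spi, vn, aos, sty, kek1 or pnt alone, which were 6 of the 18769 probe sets tested. Of these 7 genes, 5 had a probe set of their own, among 11982 genes that did. They were spi (1627453_s_at), Egfr (1633948_a_at), aos (1641578_at), kek1 (1634071_at) and sty, which had 2 (1635819_at and the dimmer 1635677_a_at). In Affymetrix naming the suffix of the spi probe set marks probes shared by several transcripts. No probe set in the annotation used here carried the name of the ligand gene vn or of the transcription factor gene pnt, and those 2 genes are not analysed here. The discs came from Drosophila melanogaster larvae of the third instar and formed 8 groups. There were 3 groups of leg discs: wild type, UASey, and ato mutant UASey. Wing discs were wild type or UASey, antennal discs were wild type (titled wt) or Uey, and all eye discs were wild type. Eye discs had 4 arrays and every other group 3, each array holding another sample. UASey and Uey were read as an eyeless (ey) transgene under UAS control, which a GAL4 driver switches on. The sources used here name neither the driver and insertion nor the ato allele, nor any difference between the UASey and Uey stocks. The wild types were not said to carry a driver. The labels speak of biological triplicates, and nothing says whether larvae were pooled.

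In Drosophila, the membrane-anchored ligand Spitz (spi) is cut by Rhomboid proteases, secreted and bound by the receptor (Egfr), which signals through Ras and MAP kinase to the ETS transcription factors Pointed and Yan (aop). The pathway switches on its own inhibitors: Argos (aos) is secreted and captures Spitz, Kekkon 1 (kek1) is a transmembrane protein that binds the receptor, and Sprouty (sty) acts inside the cell on the way to Ras. Transcription of aos and kek1 is commonly read as a sign of receptor activity. In the eye disc, the R8 photoreceptors that form under Atonal (ato) release Spitz, and the cells around them are recruited through the receptor. Eyeless is the Pax6-type factor at the top of the network that determines the eye.

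Values are log2 signals as deposited, so a difference of 1 is a doubling of the signal. All 25 arrays shared a lowest value of 6.91, and no member probe set reached it on any array. Differences were tested with limma over all probe sets, with Benjamini-Hochberg adjustment, and a probe set was called where the adjusted p fell below 0.05. Discs were measured in bulk, so fewer cells of a type and less RNA per cell cannot be told apart. The signal of phe, a bacterial transcript whose probe set serves as an array control, was 7.89 to 9.50 on arrays of eye, antennal and UASey leg discs. It was 9.77 to 11.15 on arrays of wing discs and of the other leg discs, wild type and ato mutant UASey. For comparisons across those sets of arrays, calls of member probe sets that ended with phe as a covariate are given with that value. There phe goes with the groups compared, so that fit can hardly tell phe from group, and the SEs given with phe are larger. A call can end for that reason alone, and the part of phe was not tested. After removal of group means, the Pearson correlations of members with phe over the 25 arrays ran from -0.20 (aos) to 0.07 (spi). For all other genes named here no values with phe are given, so whether their calls hold with it is not stated. The signal of GAPDH probes at the 3' end minus that at the 5' end, a sign of RNA quality, had group means of 1.84 to 2.96 and was highest in ato mutant UASey leg discs. Disc identity genes were set beside the titles. Antp was at the lowest value on every antennal and eye array, Scr on every wing array, and vg and nub on every eye array. The ato mutant UASey leg arrays stood apart: vg measured 9.59 ± 1.29 there (SD, n = 3), against 7.30 ± 0.67 in UASey and 8.71 ± 0.21 in wild-type leg discs, and mirr 8.85 ± 0.89 against 6.98 ± 0.12 and 6.92 ± 0.02. All of vg, mirr and nub had their highest group mean in wild-type wing discs, but nub went the other way (9.99 ± 0.42 against 10.50 ± 0.04 and 10.87 ± 0.09). Of 7 disc identity genes, 3 were called higher and 3 lower in ato mutant UASey than in UASey leg discs.

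Among wild-type discs, aos and kek1 were highest in the eye disc. Levels of aos on the 4 eye arrays were 11.51, 11.40, 11.29 and 11.25, a mean of 11.36 ± 0.11 (SD, n = 4). They were 9.64, 9.23 and 9.49 in wild-type leg discs, and 9.31, 9.56 and 9.38 in wild-type wing discs. In wild-type antennal discs they were 8.98, 9.11 and 8.90. All 4 eye arrays thus lay above every other array of the study, and the antennal arrays lay below all the rest. The eye disc exceeded the antennal disc 5.15-fold (log2 difference 2.36, SE 0.12, adjusted p = 5.93e-11), the leg disc 3.75-fold (1.91, SE 0.12, adjusted p = 1.35e-09) and the wing disc 3.86-fold (1.95, SE 0.12, adjusted p = 9.73e-10). These 3 calls held under every alternative setting, and the comparison with antennal discs stays within 1 set of phe values. Leg and wing discs of wild type had overlapping aos arrays (difference 0.04, 95% interval -0.24 to 0.32).

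kek1 had the same order of wild-type means, with smaller differences between the eye and the other discs. Its signals were 10.34, 10.52, 10.32 and 10.14 in wild-type eye discs, against 9.87, 9.65 and 9.77 in leg discs. They were 9.51, 9.81 and 9.80 in wing discs and 9.34, 9.41 and 9.40 in antennal discs. No wild-type leg, wing or antennal array reached the lowest eye array. In kek1 the eye disc exceeded the antennal disc by 0.94 (SE 0.11, 1.92-fold, adjusted p = 3e-06), a call held under every alternative setting. It was higher than the leg disc by 0.57 (SE 0.11, adjusted p = 0.000724) and than the wing disc by 0.62 (SE 0.11, adjusted p = 0.00025). With phe as a covariate these last differences were 0.49 (adjusted p = 0.249) and 0.56 (adjusted p = 0.0776).

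**Figure D1:**
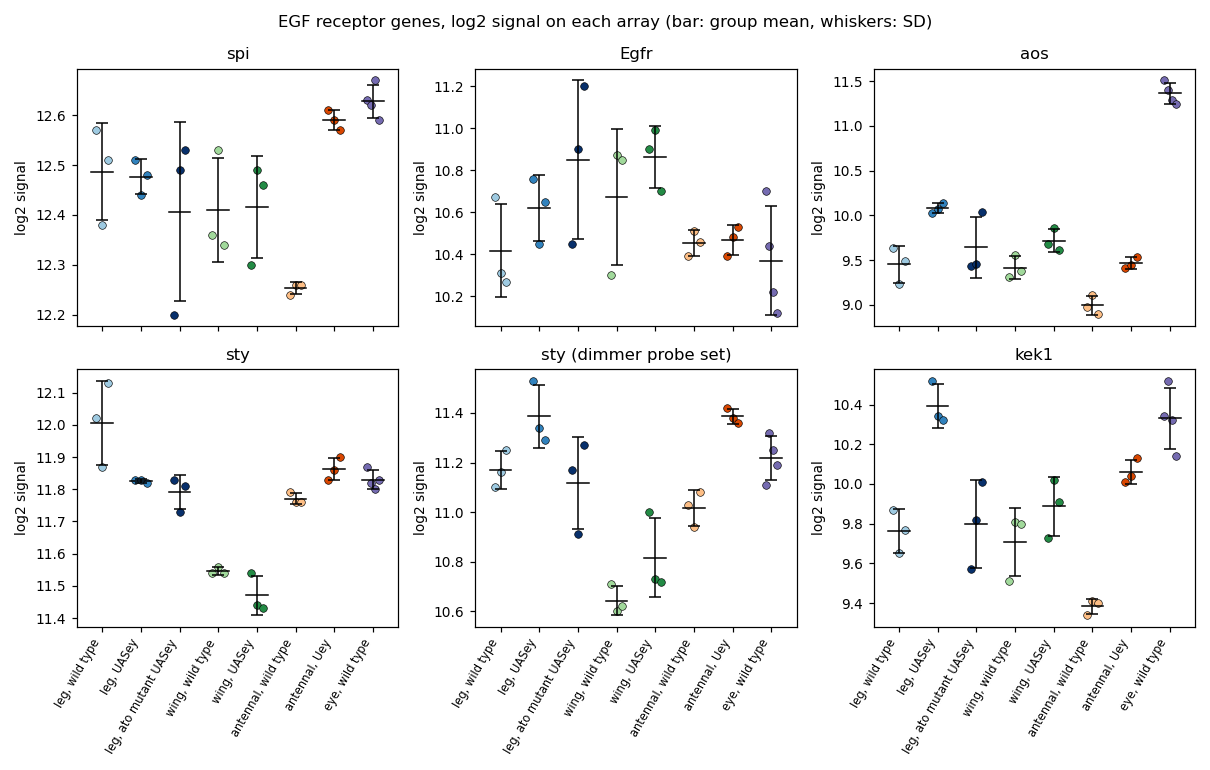
Log2 signal of the 6 member probe sets (panels, each with its own vertical scale) on every array, by group, with the group mean (bar) and SD (whiskers). The eye arrays of aos stand apart at 11.25 to 11.51. Both aos and kek1 are higher in UASey than in wild-type leg discs and in Uey than in wild-type antennal discs. The Egfr arrays overlap between groups that are next to each other in level.

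The intracellular inhibitor gene, sty, was lowest in the wing disc on both probe sets. On its brighter probe set the wild-type means were 12.01 ± 0.13 in leg (SD, n = 3), 11.83 ± 0.03 in eye (n = 4), 11.77 ± 0.02 in antennal and 11.54 ± 0.01 in wing discs (n = 3 each). On the dimmer probe set the eye had the highest wild-type mean, 11.22 ± 0.09 (n = 4), followed by leg (11.17 ± 0.07), antennal (11.01 ± 0.07) and wing discs (10.64 ± 0.05). The wing disc lay below the leg disc on both probe sets, with leg minus wing differences of 0.46 (SE 0.05, adjusted p = 2.66e-06) and 0.53 (SE 0.09, adjusted p = 0.00119). The call on the brighter one was lost in a fit on the groups compared only (adjusted p = 0.114). The wing disc also lay below the eye disc on both, with eye minus wing differences of 0.29 (SE 0.04, adjusted p = 7.16e-05) and 0.57 (SE 0.08, adjusted p = 4.82e-05). Eye against leg, the probe sets parted: -0.18 on the brighter (adjusted p = 0.00712) and 0.05 on the dimmer (adjusted p = 0.963). The call on the brighter one ended under both other scalings (quantile normalization, adjusted p = 0.0517; median centring, adjusted p = 0.363), with phe as a covariate (-0.21, adjusted p = 0.222), in a fit on the groups compared only (adjusted p = 0.176) and without wild-type leg replicate 3 (-0.11, adjusted p = 0.051).

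The ligand gene spi had a high signal, with a mean over all arrays at the 97.4th percentile of probe sets. Its 25 arrays lay between 12.20 and 12.67. In wild-type eye discs it measured 12.63, 12.62, 12.67 and 12.59, and in wild-type antennal discs 12.24, 12.26 and 12.26. The eye arrays were all above the antennal ones, by a mean of 0.38 (SE 0.07, 1.30-fold, adjusted p = 0.000653). Eye exceeded wing discs by 0.22 (SE 0.07, adjusted p = 0.0203), a call lost without wild-type wing replicate 1 (0.19, adjusted p = 0.0639) or 3 (0.18, adjusted p = 0.108), without eye replicate 3 (0.20, adjusted p = 0.0519) and with phe as a covariate (adjusted p = 0.297). Eye against leg discs did not pass (0.14, 95% interval 0.00 to 0.28, adjusted p = 0.201).

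The receptor gene Egfr passed no test in any of the 14 comparisons with all arrays. Its group means ran from 10.37 ± 0.25 in wild-type eye discs (SD, n = 4) to 10.86 ± 0.15 in UASey wing discs (n = 3). The arrays of each group overlapped those of the next in that order. Single arrays set some of its values. Wild-type wing replicate 1 measured 10.30 where the other 2 measured 10.87 and 10.85, and without it the eye disc was lower than the wing disc by a called -0.49 (adjusted p = 0.0395, against -0.30 and 0.22 with all arrays). Ato mutant UASey leg discs measured 10.45, 10.90 and 11.20, and without replicate 1 their difference from wild-type leg discs was a called 0.64 (adjusted p = 0.0208, against 0.44 and 0.113 with all arrays).

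Counted over the 6 member probe sets, 3 were higher in wild-type eye than antennal discs, and 3 did not pass, where 10.6% of all probe sets were called (5.43% higher, 5.18% lower). Shares of all probe sets, here and below, include those at the lowest value on every array, which no member is. In a fit on the 15516 others, 14% were called here, 21.5% for eye against leg and 38% for eye against wing discs. That fit gave 25.7% for UASey leg discs and 31.2% for ato mutant against UASey leg discs. For eye against antennal discs the median difference of the members was 0.29, against 0 over all probe sets. Eye against leg discs gave 2 higher and 1 lower (16.3% of all probe sets called, 6.6% higher and 9.75% lower, with medians of 0.09 and 0). Eye against wing discs gave 5 higher and 0 lower (29.6% of all called, 9.5% higher and 20.1% lower, with medians of 0.43 and 0). Markers of photoreceptor and R8 cells moved with these differences. Their summed signal (6 genes) was 13.55 to 13.68 on the eye arrays and 11.47 to 12.42 on the arrays of the other wild-type discs, and gl was at the lowest value on every wild-type leg, wing and antennal array and at 12.08 ± 0.18 in the eye. Higher levels were called for 4 of the 6 against antennal discs and for 5 of 6 against leg and wing discs. Other markers moved too. The 3 muscle precursor markers were lower in the eye than in leg and wing discs (summed signal 9.60 to 9.89 against 11.17 to 11.44 and 11.08 to 11.28), with twi at the lowest value on every eye array. Against antennal discs 1 of them was higher and 2 lower (10.21 to 10.30 there). All 3 salivary gland markers were higher than in antennal discs (11.22 to 13.76 against 10.42 to 10.49), and both fat body markers were lower than in wing discs (8.33 to 13.19 against 12.01 to 13.61). The part of these markers in the differences of aos, kek1 and spi was not tested.

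The antennal disc stood at the low end for aos, kek1 and spi among wild types. All 3 differences from the eye passed and held under every alternative setting, as given above. Against leg discs none of the 3 passed: aos differed by -0.46 (adjusted p = 0.0513), kek1 by -0.37 (adjusted p = 0.0589) and spi by -0.24 (adjusted p = 0.0605). All 3 passed when probe sets at the lowest value on all arrays were left out (adjusted p = 0.0342, 0.0409 and 0.0462), and aos also after quantile normalization (-0.40, adjusted p = 0.0406) and without wild-type leg replicate 2 (-0.57, adjusted p = 0.0386). Against wing discs, aos was lower by 0.41 (SE 0.13, adjusted p = 0.0485). That call was lost under 9 of 12 alternatives, among them the replicate block (adjusted p = 0.0714) and the omission of wild-type wing replicate 2 (-0.34) or 3 (-0.43) or of any antennal array (-0.36 to -0.47). kek1 differed by -0.32 (adjusted p = 0.0697) and became a call without wild-type wing replicate 1 (-0.42, adjusted p = 0.017). Of the 6 members 2 were higher (both sty probe sets) and 1 lower in antennal than in wing discs, where 12.9% of all probe sets were called (3.36% higher, 9.58% lower). The sty differences were 0.23 (adjusted p = 0.00412) and, on the dimmer probe set, 0.37 (adjusted p = 0.0107). With phe as a covariate they were 0.21 (adjusted p = 0.106) and 0.34 (adjusted p = 0.20), and the dimmer call was also lost without wild-type wing replicate 2 (0.35, adjusted p = 0.0539). For aos the value with phe was -0.50 (adjusted p = 0.20). Against leg discs 1 was lower (the brighter sty probe set, -0.24, adjusted p = 0.00406; with phe -0.26, adjusted p = 0.0704), with 5.89% of all called (2.43% higher, 3.46% lower). Leg against wing discs gave the 2 sty calls above, with 5.12% of all called (2.24% higher, 2.88% lower).

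In leg discs, UASey came with higher levels of aos and kek1. The aos signals were 10.03, 10.07 and 10.14 in UASey against 9.64, 9.23 and 9.49 in wild-type leg discs, with no overlap. aos rose by 0.62 (SE 0.13, 1.54-fold, adjusted p = 0.00256). kek1 measured 10.52, 10.34 and 10.32 in UASey leg discs and at most 9.87 in wild type, and it rose by 0.63 (SE 0.11, 1.55-fold, adjusted p = 0.000601). For kek1 the UASey leg arrays overlapped those of the wild-type eye disc. For aos they remained below the eye arrays by a mean of 1.28, with no overlap. The brighter sty probe set measured 11.83, 11.83 and 11.82 against 12.02, 11.87 and 12.13, and it fell by 0.18 (SE 0.05, adjusted p = 0.00809). The dimmer sty probe set differed by 0.22 in the other direction (SE 0.09, adjusted p = 0.0989), so sty has no settled direction in leg discs. The change of spi was -0.01 (95% interval -0.16 to 0.14) and that of Egfr 0.20 (-0.19 to 0.60).

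Of the 6 members 2 rose and 1 fell in UASey leg discs, where 19.4% of all probe sets were called (9.02% higher, 10.3% lower), with a median change of 0.21 against 0. This comparison crosses the sets of phe values. With phe as a covariate the change was 0.47 for aos (SE 0.23, adjusted p = 0.422), 0.55 for kek1 (SE 0.20, adjusted p = 0.186) and -0.21 for the brighter sty probe set (adjusted p = 0.211), and 0 of 6 members passed. The fall of sty also ended under quantile normalization (-0.13, adjusted p = 0.0995), median centring (-0.14, adjusted p = 0.236) and a fit on the 6 leg arrays alone (adjusted p = 0.205). Other tissue markers differed too. The 3 salivary gland markers fell, from a summed signal of 12.94 to 13.69 in wild type to 10.12 to 10.86 in UASey. Of the 6 photoreceptor and R8 markers 3 rose and 1 fell, with gl at the lowest value on every wild-type and on no UASey leg array. The GAPDH 3' minus 5' ranges did not overlap either (2.01 to 2.27 against 1.79 to 1.93 in wild type). The part of these signals in the changes of aos and kek1 was not tested.

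In wing discs none of the 6 members passed the test with UASey, where 5.32% of all probe sets were called (2.94% higher, 2.38% lower). The count was 0 under every alternative too. At an unadjusted p below 0.05 limma's test gave 1 of the 6, aos. Its signals were 9.68, 9.86 and 9.61 in UASey against 9.31, 9.56 and 9.38 in wild-type wing discs, and its change was 0.30 (95% interval 0.02 to 0.58, adjusted p = 0.279). For kek1 the change was 0.18 (-0.06 to 0.42). The intervals of spi (-0.15 to 0.16), Egfr (-0.21 to 0.58) and both sty probe sets (-0.17 to 0.02 and -0.01 to 0.36) included 0. The median change was 0.18 against 0 over all probe sets. Of the 6 photoreceptor and R8 markers 3 rose and 0 fell with UASey. Among them, gl was at the lowest value on every wild-type wing array and at 8.69 ± 0.56 with UASey. The 3 salivary gland markers fell, from a summed signal of 12.46 to 14.26 in wild type to 10.15 to 11.17 with UASey. The GAPDH 3' minus 5' signal was 2.50 to 2.65 with UASey and 1.99 to 2.44 in wild type, with no overlap. The part of these signals in the values of the members was not tested.

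In antennal discs, Uey came with higher levels of spi, aos, kek1 and the dimmer sty probe set. kek1 measured 10.01, 10.04 and 10.13 in Uey against 9.34, 9.41 and 9.40 in wild-type antennal discs. It rose by 0.67 (SE 0.11, 1.59-fold, adjusted p = 0.000442). spi measured 12.61, 12.59 and 12.57 against 12.24, 12.26 and 12.26. The Uey arrays of spi overlapped those of the wild-type eye disc, and the rise over wild-type antennal discs was 0.34 (SE 0.07, 1.27-fold, adjusted p = 0.00334). The dimmer sty probe set measured 11.42, 11.38 and 11.36 against 11.03, 10.94 and 11.08, and it rose by 0.37 (SE 0.09, adjusted p = 0.00753). The brighter one changed by 0.09 (SE 0.05, adjusted p = 0.265). The calls of kek1, spi and the dimmer sty probe set held under every alternative setting.

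The aos signals were 9.41, 9.45 and 9.54 in Uey and 8.98, 9.11 and 8.90 in wild-type antennal discs. They did not overlap, and aos rose by 0.47 (SE 0.13, 1.38-fold, adjusted p = 0.0272). That call was lost when any array but wild-type replicate 2 was left out (0.42 to 0.50, adjusted p 0.0527 to 0.12), with median centring (adjusted p = 0.0517) and with phe as a covariate (adjusted p = 0.10). The Uey arrays of aos overlapped those of wild-type leg discs (9.46 ± 0.21, SD, n = 3). In all, 4 of 6 members rose and 0 fell, where 11.5% of all probe sets were called (7.04% higher, 4.46% lower). The median change was 0.36 against 0. Muscle markers moved strongly in the same comparison: all 5 measured genes of differentiated muscle rose, from a summed signal of 9.23 to 9.25 to one of 14.35 to 14.38, with Act88F, fln, TpnC4 and Mlc2 at the lowest value on every wild-type antennal array. The 3 muscle precursor markers fell (10.21 to 10.30 against 9.54 to 9.60), and so did 2 of 5 haemocyte markers (10.67 to 10.81 against 9.42 to 9.46), with He, eater and PPO1 at the lowest value on every Uey array. Of 6 photoreceptor and R8 markers 3 rose and 1 fell. The GAPDH 3' minus 5' signal did not overlap either, at 2.19 or more on every Uey array and at most 2.16 on the wild-type antennal arrays. The part of these signals in the changes of the members was not tested.

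**Figure D2:**
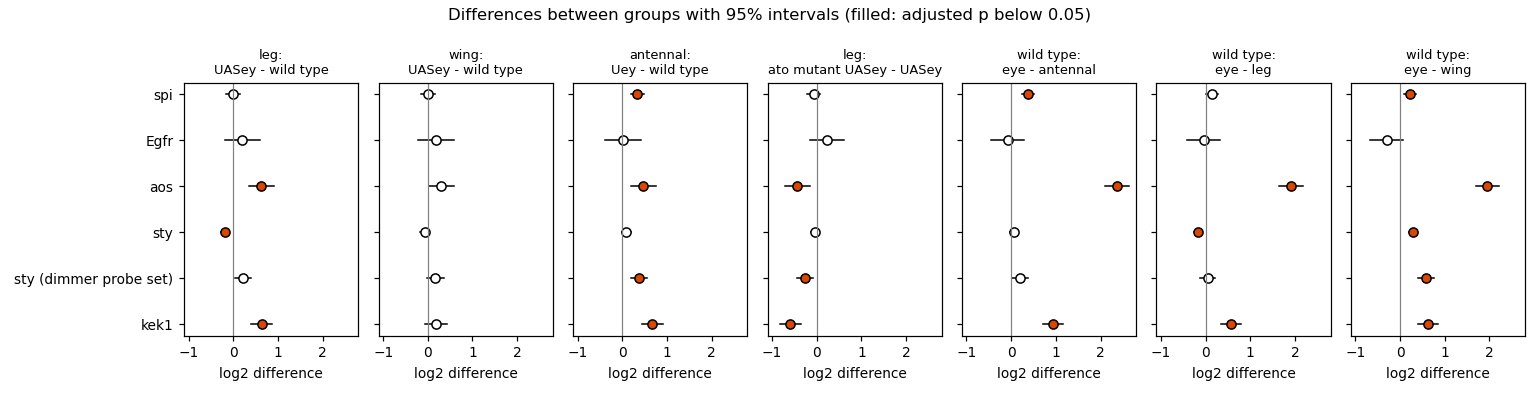
Log2 differences (horizontal axis) of the 6 member probe sets in 7 comparisons (panels), with 95% intervals before adjustment and filled points where the adjusted p was below 0.05. aos and kek1 lie to the right of 0 in UASey leg, Uey antennal and eye discs and to the left in ato mutant UASey leg discs. The eye differences of aos reach 2.36.

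The effect of ey on the members differed between discs in 1 tested case. For the brighter sty probe set the leg change minus the antennal change was -0.28 (SE 0.06, adjusted p = 0.0296), where 2.21% of all probe sets were called (0.863% higher, 1.34% lower). That call was lost under 13 of 18 alternatives, among them both other scalings, phe as a covariate (-0.30, adjusted p = 0.108) and 9 of the 12 omissions of an array, and the 18 values ran from -0.34 to -0.21. The dimmer sty probe set gave -0.16 (adjusted p = 0.761). For kek1 the change in leg discs exceeded that in wing discs by 0.45 (95% interval 0.12 to 0.79, adjusted p = 0.124), and it was called after quantile normalization (0.51, adjusted p = 0.0446) or without wild-type wing replicate 1 (0.55, adjusted p = 0.0482). The change of spi in antennal discs was set against that in leg discs (leg minus antennal -0.35, 95% interval -0.57 to -0.14, adjusted p = 0.0864) and in wing discs (wing minus antennal -0.33, -0.55 to -0.12, adjusted p = 0.188), and neither difference passed. For aos the change differed by 0.32 between leg and wing discs (-0.07 to 0.72) and by 0.16 between leg and antennal discs (-0.24 to 0.55). None of the 6 members passed for leg minus wing (4.69% of all called, 1.78% higher and 2.91% lower) or wing minus antennal discs (0.943%, 0.192% higher and 0.751% lower). At an unadjusted p below 0.05 the first had kek1 alone, and the second had spi, kek1 and the brighter sty probe set.

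In ato mutant UASey leg discs, kek1 and aos were lower than in UASey leg discs. kek1 measured 9.57, 9.82 and 10.01 in the ato mutant, all below the 10.32 to 10.52 of UASey alone. It fell by 0.59 (SE 0.11, adjusted p = 0.000813), and its mean of 9.80 ± 0.22 differed from that of wild-type leg discs by 0.04 (95% interval -0.20 to 0.28, adjusted p = 1). aos measured 9.43, 9.46 and 10.04, so that 1 ato mutant array (replicate 3) reached the UASey range of 10.03 to 10.14. It fell by 0.44 (SE 0.13, adjusted p = 0.0226) and differed from wild-type leg discs by 0.18 (-0.10 to 0.47, adjusted p = 0.402). The dimmer sty probe set fell by 0.27 (SE 0.09, adjusted p = 0.0315), and the brighter one differed by -0.03. The changes of spi (-0.07) and Egfr (0.23) did not pass. Of the 6 members 0 rose and 3 fell, where 23.5% of all probe sets were called (14.5% higher, 9.03% lower), with a median change of -0.17 against 0. The UASey leg arrays serve in this comparison and in that with wild type. Against wild-type leg discs, 1 of 6 members was lower in the ato mutant, the brighter sty probe set (-0.22, adjusted p = 0.00207), where 21.1% of all were called (12.3% higher, 8.87% lower). That call was lost in a fit on the groups compared only (adjusted p = 0.203). The dimmer sty probe set differed from wild-type leg discs by -0.05 (adjusted p = 0.867).

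The calls against UASey rest on few arrays. In a fit on the 6 arrays alone, none of the 3 passed (adjusted p = 0.0717 for kek1, 0.239 for aos, 0.256 for sty). The aos call was lost without UASey replicate 2 (-0.44) or 3 (-0.41) or without ato mutant replicate 1 (-0.33) or 2 (-0.35), and the dimmer sty call without UASey replicate 1 (-0.20) or 2 (-0.29) or ato mutant replicate 2 (-0.17). The kek1 call held whichever array was left out. The comparison crosses the sets of phe values, and with phe as a covariate the changes were -0.50 for kek1 (SE 0.22, adjusted p = 0.413), -0.25 for aos (SE 0.26, adjusted p = 0.905) and -0.20 for the dimmer sty probe set (SE 0.17, adjusted p = 0.83). Quantile normalization shifted the median over probe sets never at the lowest value from 0.00 to -0.14, and kek1 and aos changed by -0.79 and -0.63 there. The GAPDH 3' minus 5' signal was 2.76 to 3.29 on the ato mutant arrays, 2.01 to 2.27 on the UASey and 1.79 to 1.93 on the wild-type leg arrays, with no overlap. The ato mutant arrays also carried other tissue signals. All 5 haemocyte markers were higher than in UASey leg discs (summed signal 11.26 to 13.59 against 9.78 to 9.96), and the 2 fat body markers summed to 14.10 to 14.33 against 10.49 to 12.32 without passing the test. Of the 6 photoreceptor and R8 markers 4 were lower and 1 higher than in UASey leg discs. Their summed signal was 12.38 to 12.53 in the ato mutant and 12.25 to 12.43 in UASey. gl was at the lowest value on every ato mutant array and at 10.04 ± 0.20 in UASey leg discs, while chp measured 11.76 ± 0.22 against 9.55 ± 0.32. The ato probe set itself measured 8.81 ± 1.20 in the ato mutant and 10.54 ± 0.07 in UASey. The part of these signals, of the GAPDH difference and of the vg, mirr and nub levels in the changes of the members was not tested.

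aos and kek1 varied together over the groups. Across the 8 group means the Pearson correlation of aos and kek1 was 0.79, and across the 7 without the eye disc it was 0.90. The same values were -0.23 and 0.48 for Egfr with aos, and 0.80 and 0.72 for spi with kek1. The 2 sty probe sets, which measure the same gene, correlated at 0.80 and 0.79. After removal of group means, the 25 arrays gave 0.79 for Egfr with kek1, 0.74 for Egfr with aos and 0.66 for aos with kek1. All these values come from the same arrays, so that any property of an array enters both genes. Among the 11038 probe sets never at the lowest value, the spread of group means placed aos at the 97.4th percentile, kek1 at 87.2, the dimmer and brighter sty probe sets at 79.1 and 64, Egfr at 57.7 and spi at 38.9.

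**Figure D3:**
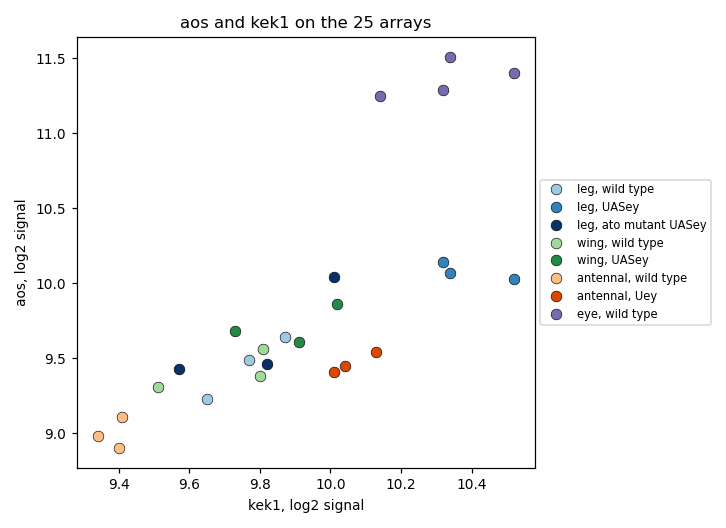
Log2 signal of aos (vertical) against kek1 (horizontal) on the 25 arrays, coloured by group. The eye arrays stand above all others in aos, at kek1 levels that the UASey leg arrays share, and the wild-type antennal arrays lie lowest in both.

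The genes whose signal was most like that of aos over the 25 arrays were beat-IIIc (Pearson r = 0.971), loco (0.955) and RabX4 (0.953), values that fell to 0.858, 0.827 and 0.754 without the 4 eye arrays. For kek1 they were Traf4 (0.913), twit (0.897) and U2af50 (0.867), with 0.909, 0.892 and 0.842 without the eye arrays. For spi they were dos (0.797), DNAlig4 (0.776) and kek1 itself (0.773). For Egfr they were cindr (0.902), bsd (0.898) and Tab2 (0.888), and for sty they were Awh (0.861), Pli (0.813) and Ssu72 (0.793). For each member 5592 named genes above the lowest value on every array were searched (5591 for sty).

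Of 60 other genes listed for the pathway and for other receptor tyrosine kinases, 46 had a probe set of their own. In UASey leg discs 9 of them rose and 6 fell (19.4% of all probe sets called, as above). With phe as a covariate, calls over all probe sets in this comparison went from 3632 to 561. The listed genes are given without phe. Of the 9 measured genes between receptor and MAP kinase 4 rose and 0 fell, among them the phosphatase gene csw (0.51, adjusted p = 0.006), the Ras scaffold gene Sur-8 (0.43, adjusted p = 0.0374) and cnk (0.48, adjusted p = 0.0378). Among 9 nuclear genes, the repressor gene aop rose by 0.49 (SE 0.08, adjusted p = 0.000175) and edl, whose product binds ETS factors, fell by 0.83 (SE 0.09, adjusted p = 2.71e-06). Of 9 other negative regulators, 1 rose (Cbl, a ubiquitin ligase of the receptor, by 0.53) and 3 fell (kek5, ec and Nf1). Each of the 3 that fell passed on its brightest probe set only. Of 16 genes of other receptors and ligands 3 rose and 2 fell: the FGF ligand gene bnl rose at least 2.25-fold from the lowest value, at which its other 2 probe sets lay on these arrays, sev rose by 0.66 (adjusted p = 0.000198), and InR fell by 1.84 (adjusted p = 0.000205). The levels of InR went with the sets of phe values, as given below. None of the 3 other genes of ligands and their processing (grk, Krn and S) passed.

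Cbl and kek5 changed in all 3 discs with ectopic ey, comparisons that share no arrays. Cbl rose by 0.53 in leg, 0.58 in wing (adjusted p = 0.0171) and 0.68 in antennal discs (adjusted p = 0.00235). A dimmer Cbl probe set changed by 0.47, 0.38 and 0.59 and passed in leg and antennal discs only (adjusted p = 0.0421, 0.224 and 0.0167). The probe sets parted elsewhere: the dimmer one was higher in wild-type eye than in antennal, leg and wing discs by 0.69, 0.94 and 1.20 (adjusted p at most 0.00304), while the brighter one gave -0.13, -0.13 and -0.12 and did not pass. kek5, a relative of kek1, gave -1.77 in leg (adjusted p = 6.12e-07), -1.69 in wing (adjusted p = 1.94e-06) and -1.50 in antennal discs (adjusted p = 4.53e-06). Its dimmer probe set gave -0.25, 0.10 and 0.10 and passed in none of them, so the fall of kek5 rests on 1 probe set. The receptor tyrosine kinase gene sev, which acts in R7 photoreceptors and also counts among the photoreceptor markers used here, rose by 0.66, 0.43 and 0.41. In wing discs 3 of the 46 rose and 2 fell (5.32% of all called), and in antennal discs 4 rose and 3 fell (11.5%).

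In ato mutant UASey leg discs 7 of the 46 were lower and 11 higher than in UASey leg discs (23.5% of all called). Here too the listed genes are given without phe, with which calls over all probe sets went from 4415 to 311. phyl, which acts in R7 and sensory organ fates, fell by 1.28 (SE 0.11, adjusted p = 1.41e-07), sev by 0.76 (adjusted p = 3.61e-05) and aop by 0.30 (adjusted p = 0.0072). The 2 rises with the smallest adjusted p in the list of other receptors were in Pvf1 (3.11, adjusted p = 1.78e-05) and InR (2.18, adjusted p = 2.96e-05), both of which had changed in the opposite direction in UASey against wild-type leg discs, a comparison with the same UASey arrays. Both genes went with the sets of phe values. In wing, wild-type leg and ato mutant leg discs, group means were 12.15 to 12.49 for InR and 10.92 to 11.67 for Pvf1. In eye, antennal and UASey leg discs they were 10.30 to 11.07 and 8.43 to 9.42. The part of phe in these changes was not tested. kek5 rose by 1.01 (adjusted p = 0.000198). Haemocyte and fat body signals on these arrays are given above.

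In wild-type eye discs sev and phyl had the smallest adjusted p of the listed genes against each other disc. sev was higher than in antennal, leg and wing discs by 1.80, 1.96 and 2.02 (adjusted p at most 7.33e-11), and phyl by 1.82, 2.18 and 3.08 (adjusted p at most 1.02e-10). pros, a homeobox gene of R7 and cone cells, was higher by 2.83 and 2.38 than in antennal and leg discs and at least 7.53-fold higher than in wing discs, where it was at the lowest value on every array. aop was higher by 0.65, 0.74 and 0.70 (adjusted p at most 1.96e-06), and Sur-8 by 0.96, 0.90 and 0.95. Of the 46 genes 10 were higher and 4 lower than in antennal discs (10.6% of all called), 10 and 10 against leg discs (16.3%), and 13 and 12 against wing discs (29.6%).

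**Figure D4:**
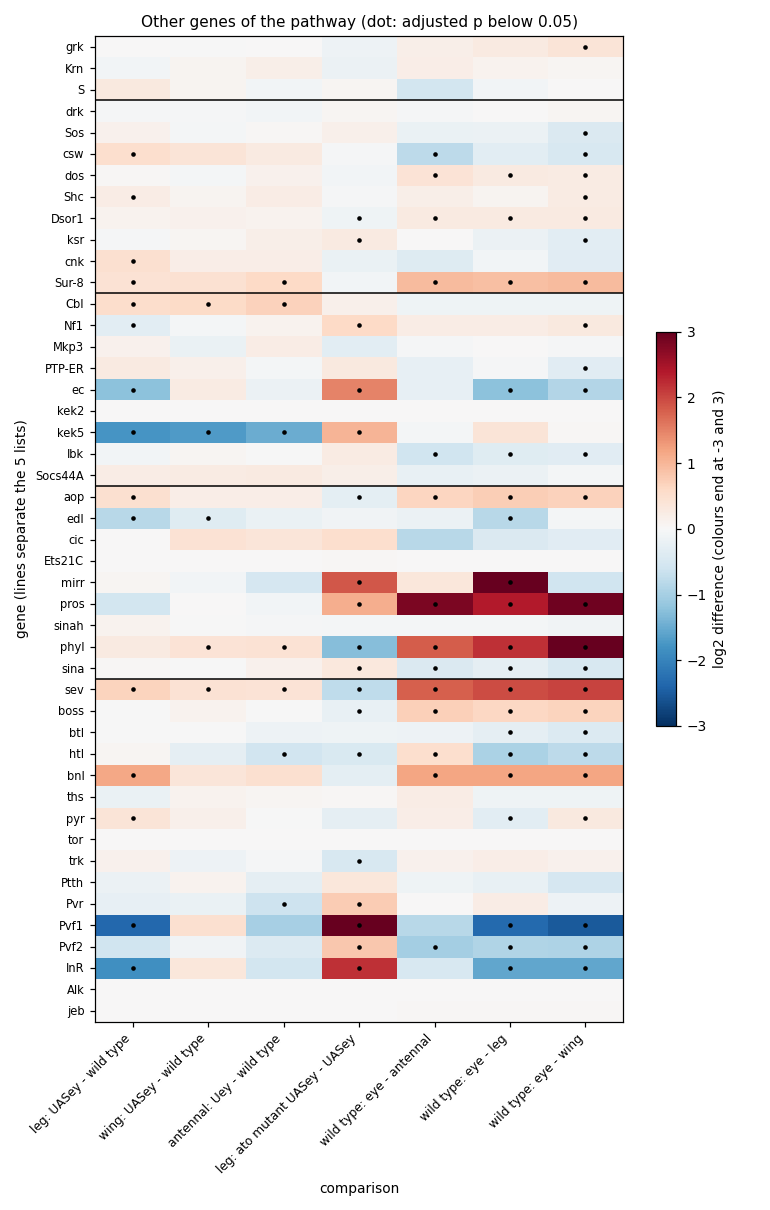
Log2 differences (colour) of the 46 listed genes with a probe set (rows, in the 5 lists) in 7 comparisons (columns), with a dot where the adjusted p was below 0.05. Cbl is red and kek5 blue in all 3 comparisons with ectopic ey, and sev, phyl and pros are red in the 3 eye comparisons.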

How the data were processed

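Total RNA of 25 disc samples was measured on 1 array each. Per the labels' protocols, Trizol was used for the isolation, and 100 ng went into the Affymetrix two-cycle protocol with Enzo biotin labelling. The authors deposited 1 log2 signal per probe set and array. The sources used here do not say with which software they were summarised and scaled, and the log2 scale was read from the range of the values (6.91 to 14.33). The lowest value was shared by 25.3% to 33.9% of the probe sets of each array and was treated as a floor. Array medians lay between 7.54 and 7.86, and the deposited scaling was kept. For arrays, their number limits the precision, and p-values measure the spread between these samples.

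Of 18952 probe sets, 183 controls were left out and 18769 tested. The platform annotation gave 13647 probe sets 1 gene, 402 several and 4720 none, and only the first kind was named. Of them 13544 matched the RefSeq gene table. No sequence was used. limma 3.58.1 in R 4.3.3 was run on all 25 arrays with 1 mean for each of the groups (lmFit, contrasts, eBayes; 17 residual and 0.45 prior degrees of freedom), two-sided, after the script was tested on simulated data. For listed genes with more than 1 probe set, the brightest on average was taken. The members and lists were chosen with earlier results of these data known. Named were all members, up to 3 called genes per list and comparison with the smallest adjusted p, and the 3 genes most correlated with each member. Outside this rule, Nf1, aop in ato mutant and in eye against leg discs, and the second probe sets of Cbl and kek5 were added after their values were seen. Alternatives were quantile normalization, median centring of arrays, the replicate number as a block, leaving out probe sets at the floor on all arrays, the phe signal as a covariate, a fit on the groups compared, and leaving out each array. Same-numbered arrays of 2 groups had deviations that correlated between -0.40 and 0.35. Only for eye and antennal discs were all 3 correlations over 0.1 (0.14 to 0.15), and the block changed no call of that comparison.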

Additional observations from a re-analysis of the deposited data

Results flagged for a closer look

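For the brighter sty probe set, the change with ectopic ey differed between leg and antennal discs (log2 -0.28, SE 0.06, limma adjusted p = 0.0296 for the difference). The leg change was -0.18 and the antennal change 0.09, each with 3 arrays per group. The difference failed the threshold under 13 of 18 alternatives (values -0.34 to -0.21, adjusted p 0.000692 to 0.301). The dimmer probe set of the same gene gave a difference of -0.16 (adjusted p = 0.761). No member probe set had an eye array far from the other 3 (largest gap over range 0.541).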

How the results depend on the processing

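Of 29 calls of member probe sets over 14 comparisons, 11 held under every alternative, and none of the 29 reversed under any. Those 11 include all 3 eye differences of aos, the eye against antennal difference of kek1, and the antennal changes of kek1, spi and the dimmer sty probe set. The number of members called stayed within 1.5 times its main value, with these exceptions. Antennal against leg discs (main 1) gave 2 after quantile normalization, 0 after median centring, 4 without probe sets at the floor on all arrays, 0 with phe as a covariate and 0 with the groups compared only. The leg minus wing difference (main 0) gave 1 after quantile normalization. The leg minus antennal difference (main 1) gave 0 after either scaling and with phe. Its call, on the brighter sty probe set, was also lost with the groups compared only. With phe as a covariate the count was 0 for UASey leg discs (main 3), 0 for ato mutant against UASey leg discs (main 3), 1 for eye against leg (main 3), 3 for eye against wing (main 5) and 0 for antennal against wing discs (main 3). With the groups compared only it was 0 for ato mutant against UASey, 0 for ato mutant against wild-type leg (main 1) and 1 for leg against wing discs (main 2).

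Leaving out 1 array gave 1 to 3 for ato mutant against UASey (1 without UASey or ato mutant replicate 2), 1 to 2 for ato mutant against wild type (2 without ato mutant replicate 1) and 1 to 2 for antennal against leg discs (2 without leg replicate 2). It gave 1 to 4 for antennal against wing discs (1 without wing replicate 2), 0 to 1 for leg minus wing (1 without wild-type wing replicate 1) and 0 to 1 for leg minus antennal, where 9 of 12 omissions ended the call. With the replicate number as a block, no count moved by over 1.5 times (3 for eye against antennal discs in both fits), and aos in antennal against wing discs lost its call (-0.41, adjusted p = 0.0714). The numbers were not said to pair the samples.

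Over all probe sets, calls depended on the setting: 3632 to 561 (phe) for UASey leg, 999 to 138 (groups compared only) for UASey wing, 2160 to 4114 (groups compared only) for Uey antennal, 4415 to 311 (phe) for ato mutant against UASey, 3968 to 1320 (groups compared only) for ato mutant against wild type, 3068 to 800 (phe) for eye against leg, and 5547 to 1034 (phe) or 10422 (centring) for eye against wing discs. They went from 1106 to 255 (phe) or 1677 (quantile) for antennal against leg, 2428 to 373 (phe) or 8114 (centring) for antennal against wing, and 961 to 194 (groups compared only) for leg against wing discs, and from 880 to 15 (phe) or 1440 (quantile), 414 to 197 (phe) or 1096 (groups compared only) and 177 to 118 (phe) for the differences leg minus wing, leg minus antennal and wing minus antennal. The share of calls that were higher went from 61.6% to 32.2% (quantile) in ato mutant against UASey, 58% to 36.1% (quantile) against wild type, 32.1% to 80.4% (centring) in eye against wing, 40.4% to 53.3% (centring) in eye against leg, 41.2% to 57.7% (quantile) in antennal against leg, 25.9% to 83% (centring) in antennal against wing 43.7% to 70% (centring) in leg against wing discs, 38% to 57.6% (quantile) for leg minus wing and 39.1% to 58.8% (quantile) for leg minus antennal. The causes were not tested.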
